A study of Mus musculus with 15 samples.

Results

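The genes of oxidative phosphorylation, the subunits of the respiratory complexes and of ATP synthase, were followed by RNA sequencing through lung cancer cells, the tumors grown from them and normal mouse lung. Members were taken by gene name, as the nuclear genes named Nduf, Sdh, Uqcr, Cox4 to Cox8 and Atp5 with a subunit code, and the protein-coding genes of the mitochondrial genome. Names marked as pseudogenes were left out. The rule found 96 of the 55359 rows of the matrix, 83 nuclear and 13 mitochondrially encoded. By name, the nuclear members fell into 37 for complex I, 4 for complex II, 8 for complex III, 16 for complex IV and 18 for ATP synthase (complex V), and the mitochondrial members into 7, 0, 1, 3 and 2. Atp5o has 2 rows, 1 of them a short transcript that lies wholly in exons of other annotated genes. Cox6c2 is annotated as a processed pseudogene in spite of its name, and Ndufa4, placed in complex I by its name, is now regarded as a subunit of complex IV.

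In oxidative phosphorylation, complexes I and II pass electrons from NADH and succinate to coenzyme Q, complex III hands them to cytochrome c and complex IV to oxygen. The protons pumped by complexes I, III and IV drive ATP synthase. Most subunits are made from nuclear genes and imported, while a small core set is transcribed inside the mitochondrion from both strands of its circular genome as long precursors that are cut into separate mRNAs, so the complexes depend on both genomes.

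All tumor cells descend from QKO mice, which carry a null Rbl1 gene and in which Rb1 and Trp53 are among the genes that Cre can delete. The hosts of the tumors and the mice that gave normal lung were QKO too, so Rbl1 is null in them as well. 46LCNEC is a line from a large cell neuroendocrine carcinoma, raised by delivering an adenovirus with Cre driven by the CMV promoter to the airway, and it grew attached to the dish. 57SCLC is a line from a small cell lung carcinoma, raised with Cre driven by the keratin 5 promoter, and it grew in suspension, so line, tumor type, Cre promoter and way of growth cannot be told apart. Each line was profiled in culture (46LCNEC_cell and 57SCLC_cell, 3 dishes or flasks of 1 line each) and as tumors under the skin of immunocompetent QKO mice (46LCNEC_allo and 57SCLC_allo, 3 tumors each). Normal lung (Lung, 3 samples) came from QKO littermates not given these cells. RNA was selected by its poly-A tail.

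Recovered read totals ran from 9480244 in tumor 275 of 57SCLC_allo to 44876572, with a median of 26502525. The nuclear ribosomal RNA row Rn18s-rs5 took 1.08% to 11.5% of the reads. It was high in the 3 samples of 46LCNEC_allo (6.69% to 11.5%) and set flask C of 57SCLC_cell (4.63%) apart from its replicates (1.08% and 1.15%). The allografts held host cells. The summed level of 6 macrophage markers was 275 to 384 normalized counts in the cultures, 25633 to 59717 in 46LCNEC_allo and 11853 to 24656 in 57SCLC_allo. In such bulk samples, fewer cells of a type and less RNA per cell cannot be told apart. Markers of alveolar epithelium summed to 228917 to 307770 in Lung against at most 2527 elsewhere, and 5 neuroendocrine markers to 82357 to 89488 in 57SCLC_cell and 41262 to 51215 in 57SCLC_allo. The same neuroendocrine markers summed to only 14 to 48 in the 6 samples of 46LCNEC, under the 164 to 180 of Lung, although the label of that line names a neuroendocrine carcinoma. These sums are RNA of a few chosen genes. The paper reports protein staining for neuroendocrine markers in LCNEC cells and tumors.

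The nuclear genome holds copies of mitochondrial DNA. The longest match found in GRCm39, chr1:24650616-24655269, covers 4654 bases with 99.9% identity to positions 6390 to 11042 of the mitochondrial genome. The smallest mitochondrial subunit gene, mt-Atp8, is printed because its copy is perfect: all 204 bases recur on chromosome 1, with 0 differences, and mt-Atp8 had 0 reads in all 15 samples.
mt-Atp8 (GRCm39, chrM:7766-7969, + strand): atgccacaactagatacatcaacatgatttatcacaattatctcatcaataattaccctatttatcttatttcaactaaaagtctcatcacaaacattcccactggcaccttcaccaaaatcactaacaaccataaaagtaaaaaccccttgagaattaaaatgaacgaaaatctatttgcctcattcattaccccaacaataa
Copy of mt-Atp8 (GRCm39, chr1:24653690-24653893, - strand): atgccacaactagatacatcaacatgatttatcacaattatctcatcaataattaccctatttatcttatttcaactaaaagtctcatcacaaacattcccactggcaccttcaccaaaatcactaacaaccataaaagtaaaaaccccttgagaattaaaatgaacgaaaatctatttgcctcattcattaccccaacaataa
The members inside this stretch were nearly empty. For mt-Co2, mt-Co3, mt-Atp6, mt-Atp8 and mt-Nd4l, 100% of all 150-base windows recur exactly in the nuclear genome, and for mt-Nd3 98.5%. Their highest value in any sample was 530 reads, for mt-Atp6, and mt-Nd3, mt-Nd4l and mt-Atp8 stayed at or under 3 reads in every sample. The 7 members with a lower share of such windows (0% for mt-Nd1, mt-Nd2, mt-Nd5, mt-Nd6 and mt-Cytb, 23.6% for mt-Co1, 59.2% for mt-Nd4) had 5727 to 498133 reads per sample. Annotated pseudogenes in the copy on chromosome 1 were just as low, at most 582 reads, so both sites held few reads. The handling of reads with several alignments is not stated, and its part in these values was not tested. Levels of mt-Co2, mt-Co3 and mt-Atp6 are therefore given only beside this limit.

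Another kind of copy touches the nuclear members. Processed pseudogenes, copies of spliced mRNAs put back into the genome, were assigned to 33 nuclear members, 73 of them in all, and 41 had reads. Atp5o, which encodes the oligomycin sensitivity subunit of the ATP synthase stalk, is the clearest case. The start of its spliced coding sequence runs through 2 exon junctions, and the intronless Gm5436 on chromosome 12 matches it at 145 of 150 bases (capitals mark the 5 bases of Gm5436 that differ).
Atp5o (GRCm39, joined coding exons within chr16:91722169-91728443, - strand): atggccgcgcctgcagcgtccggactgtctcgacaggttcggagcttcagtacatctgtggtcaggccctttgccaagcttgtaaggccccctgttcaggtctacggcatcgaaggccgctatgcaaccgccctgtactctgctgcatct
Gm5436 (GRCm39, chr12:84305598-84305747, - strand): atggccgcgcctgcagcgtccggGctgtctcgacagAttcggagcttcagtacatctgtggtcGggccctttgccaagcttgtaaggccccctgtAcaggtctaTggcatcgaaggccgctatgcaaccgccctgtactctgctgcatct
Over the 15 samples, the main Atp5o row held 1002 reads and Gm5436 held 97379, so 99.0% of the reads of the pair stood on the pseudogene. The same held, less extremely, for 9 more members with more reads on pseudogenes than on themselves. Among them were Atp5g1 (35148 reads on pseudogenes, 3910 of its own), Ndufa11 (85.9% on pseudogenes), Atp5md (82.6%), Ndufc1 (74.0%) and Atp5pb (72.7%). In the sum over all nuclear members, pseudogenes took 17.7% to 24.5% of the reads per sample, with the 3 samples of 46LCNEC_allo highest (23.2% to 24.5%) and 57SCLC_allo at 17.7% to 19.2%. Cox6c2, with 3902 reads over the series, enters these shares on both sides, as a member and as a pseudogene of Cox6c. The authors' aligner does not place reads across introns. The median nuclear member has only 46.4% of its 150-base windows within 1 exon, and 8 members have under 10%, so levels between genes are rough even per length.

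**Figure D1:**
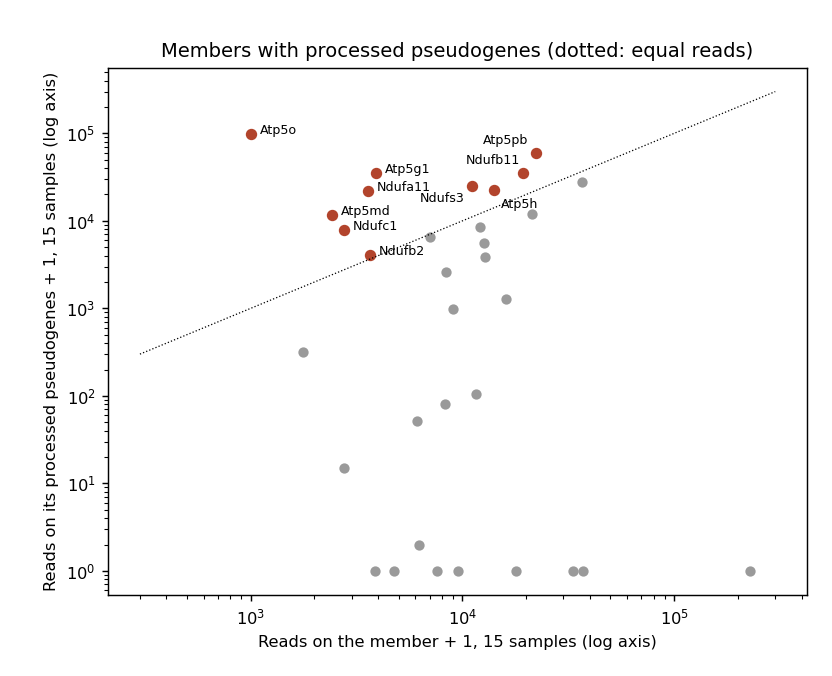
Reads on each nuclear member that has a processed pseudogene (x axis, summed over 15 samples, plus 1, log scale) against reads on its pseudogenes (y axis, same scale). Each point is 1 member. The 10 coloured points above the dotted line of equality have more reads on pseudogenes, led by Atp5o with 1002 own reads and 97379 on Gm5436.

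The main result on the mitochondrial genome is a contrast between the lines. In culture, 46LCNEC held more mitochondrially encoded mRNA than any other group. As allograft it no longer held this excess, while in 57SCLC no mitochondrial member was called between culture and allograft. The 13 mitochondrial members took 3.40%, 4.09% and 4.43% of the reads in the 3 samples of 46LCNEC_cell and 1.49%, 1.42% and 2.06% in those of 46LCNEC_allo. In 57SCLC_cell the shares were 2.34%, 2.32% and 2.56%, in 57SCLC_allo 3.29%, 1.89% and 1.99%, and in Lung 2.44%, 2.47% and 2.19%. The 3 samples of 46LCNEC_cell lay above all 12 others, and 46LCNEC_allo and 46LCNEC_cell did not overlap. The counting error is negligible, since the widest 95% Wilson interval spans ± 0.0114 percentage points. With Rn18s-rs5 left out of the total, the shares of 46LCNEC_cell and 46LCNEC_allo became 4.09% ± 0.539 and 1.82% ± 0.385 (SD, n = 3). Nuclear members took far less, 0.279% ± 0.0175 in Lung, 0.369% ± 0.0211 and 0.291% ± 0.0296 in the cultures and tumors of 46LCNEC, and 0.498% ± 0.0315 and 0.437% ± 0.0270 in those of 57SCLC (SD, n = 3). There were thus 9.85 to 11.5 mitochondrial reads per nuclear member read in 46LCNEC_cell, 5.30 to 6.34 in 46LCNEC_allo, 4.42 to 7.05 in the 6 samples of 57SCLC and 8.36 to 8.71 in Lung.

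Gene by gene, mt-Nd1, which encodes a core membrane subunit of complex I, read 178935, 216740 and 242279 normalized counts in 46LCNEC_cell and 54928, 47150 and 84591 in 46LCNEC_allo. The groups did not overlap, and tumor 321 was the highest of the 3 tumors. Its log2 fold change from culture to allograft was -1.81 ± 0.277 (SE, limma adjusted p = 0.00155). In 57SCLC the same gene read 70042, 67389 and 75100 in culture and 104453, 64036 and 64610 in the tumors, which overlap, with a log2 fold change of 0.10 ± 0.219 (limma adjusted p = 0.761). Here tumor 275, the shallowest library, was the only one above the cultures.

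Of the 10 mitochondrial members that passed the filter on low values, 6 were called lower in 46LCNEC_allo than in 46LCNEC_cell (adjusted p of at most 0.01 and at least 2-fold) and 0 higher, against a background of 8.45% of all genes tested called lower. Their median log2 fold change was -1.06, beside 0.00 over all genes. Besides mt-Nd1 they were mt-Nd2 (-1.82 ± 0.246), mt-Nd4 (-1.01 ± 0.189) and mt-Nd5 (-1.17 ± 0.195), further membrane subunits of complex I, mt-Nd6 (-1.19 ± 0.163), the member encoded on the other strand, and mt-Cytb (-1.11 ± 0.245), the cytochrome b of complex III. mt-Co1, the catalytic subunit of complex IV and the mitochondrial member with the highest level per length, changed by -0.91 ± 0.264 (limma adjusted p = 0.0233) and was not called. Its samples read 254930, 306203 and 337039 in culture and 153506, 142670 and 181722 in the tumors, again without overlap. All 10 log2 fold changes were below 0. Leaving out dish B or dish C of 46LCNEC_cell reduced the 6 calls to 2, and the range with 1 sample left out was 2 to 7. The calls of mt-Nd2 and mt-Nd6 were made in each of these 6 fits, while that of mt-Cytb was lost in 5 of them, that of mt-Nd4 in 4, that of mt-Nd5 in 3 and that of mt-Nd1 in 2.

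Some of the values that moved with this fall are given here, and their part in it was not tested. From 46LCNEC_cell to 46LCNEC_allo, the share of Rn18s-rs5 went from 2.79% ± 0.369 to 8.96% ± 2.39 (SD, n = 3). The summed level of 6 fibroblast markers went from 76105 to 86538 normalized counts to 420733 to 832998, and that of the macrophage markers from 330 to 384 to 25633 to 59717. The sum of 4 cycling cell markers was 29630 to 31910 in culture and 16258 to 26325 in the tumors. It was also lower in 57SCLC_allo (28055 to 36787) than in 57SCLC_cell (42624 to 46193). Endothelial and erythroid sums were higher in the tumors than in culture in both lines. Tumor 321, which had the most mitochondrial mRNA of the 3, had the lowest fibroblast sum and the highest macrophage sum. Its cycling cell sum was also the lowest (16258 against 19660 and 26325), and its alveolar epithelium sum the highest (2527 against 1192 and 689). In 57SCLC_allo, where the macrophage markers also stood at 11853 to 24656 and the fibroblast markers at 38885 to 59879 against at most 29 in culture, 0 of the 10 mitochondrial members were called in either direction. The background there was 14.4% higher and 2.29% lower, and 4 of the 10 were at an unadjusted p under 0.05. edgeR and DESeq2 also called 0, and the median log2 fold change was 0.08.

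The difference between the lines was tested directly by an interaction term over 12 samples. Of the 10 mitochondrial members, 4 were called, all with a more positive change from culture to allograft in 57SCLC than in 46LCNEC, where 10.8% of all genes tested were called in that direction and 6.78% in the other. They were mt-Nd1 (difference of log2 changes 1.90 ± 0.342, limma adjusted p = 0.00115), mt-Cytb (1.66 ± 0.322, limma adjusted p = 0.00188), mt-Nd2 (1.49 ± 0.338, limma adjusted p = 0.00478) and mt-Co2 (1.55 ± 0.352, limma adjusted p = 0.00495). The last rests on few reads, 28.4 to 102 normalized counts per sample. With 1 sample left out the count ran from 2 to 5. It was 2 without tumor 275, without dish C of 46LCNEC_cell, and without flask A or B of 57SCLC_cell. mt-Nd1 and mt-Cytb were called in each of these 12 fits, and mt-Nd2 and mt-Co2 were lost in 6 each. No nuclear member was called (0 of 78 by limma and edgeR, 1 by DESeq2, and 23 at an unadjusted p under 0.05).

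**Figure D2:**
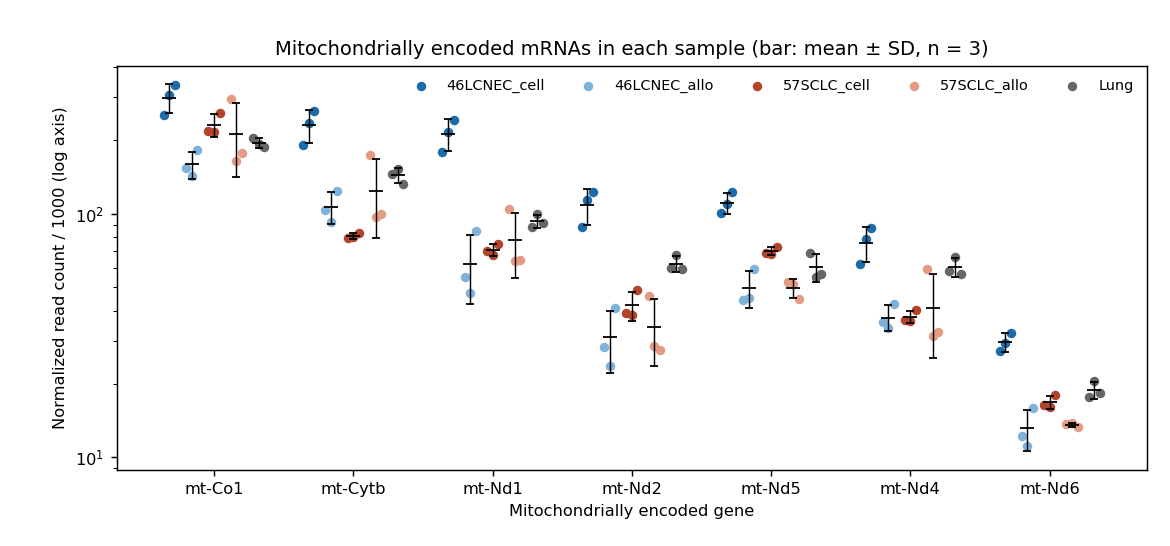
Normalized read counts, divided by 1000, of the 7 well covered mitochondrial members (log axis) in each of 15 samples. Points are samples, coloured by group, and bars give the mean ± SD (n = 3). The 46LCNEC_cell samples are the highest for mt-Nd1, mt-Nd2, mt-Nd5, mt-Nd6 and mt-Cytb, and the 46LCNEC_allo samples lie below them for all 7 genes.

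Between the cultures, 5 of 10 mitochondrial members were lower in 57SCLC_cell than in 46LCNEC_cell and 0 higher, at a background of 22.2% of genes called lower. They were mt-Nd1 (log2 fold change -1.58 ± 0.165), mt-Cytb (-1.50 ± 0.169), mt-Nd2 (-1.36 ± 0.171), mt-Co2 (-1.33 ± 0.227) and mt-Atp6 (-1.14 ± 0.224), the last a subunit of the proton channel of ATP synthase. The calls of mt-Co2 and mt-Atp6 rest on few reads, 20 to 133 and 74 to 530 per sample over the series. All windows of these genes recur in the nuclear genome, and the part of this in their levels was not tested. mt-Cytb read 192053, 235615 and 262767 in 46LCNEC_cell against 79699, 80044 and 83229 in 57SCLC_cell, a gap larger than the spread of either group. mt-Co1 differed less, with -0.37 ± 0.208 (limma adjusted p = 0.138), and its 2 groups overlapped by 1 flask, since flask C of 57SCLC_cell read 259554. Between the allografts, 0 of 10 members were called in either direction (background 16.1% higher and 14.2% lower), 0 were at an unadjusted p under 0.05, edgeR and DESeq2 called 0, and their log2 fold changes lay between -0.10 and 0.37.

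Against Lung, with which 4 comparisons share the same 3 samples, 46LCNEC_cell had 2 of 10 mitochondrial members called higher (background 20.6%), mt-Nd1 at 1.18 ± 0.172 and mt-Co2 at 1.03 ± 0.238, and all 10 were above 0. The same limit of few reads and nuclear copies applies to mt-Co2 here. In 46LCNEC_allo only mt-Nd2 was called, lower (-1.04 ± 0.232, limma adjusted p = 0.0078, background 22.1%). It is a borderline call: with edgeR the log2 fold change was -0.93, and it was lost in 5 of 6 fits that left out 1 sample. In 57SCLC_cell and 57SCLC_allo, limma called 0 at 2-fold, at backgrounds of 32.7% and 26.9% called lower, with 5 and 3 of 10 at an unadjusted p under 0.05. Whatever the fold, 3 of 10 were lower in 57SCLC_cell (mt-Nd2, mt-Nd4 and mt-Cytb) and 2 in 57SCLC_allo (mt-Nd2 and mt-Nd6), where 40.4% and 35.4% of all genes were.

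Most nuclear members stayed within 2-fold in every comparison, 69 to 78 of the 78 or 79 tested. Their median log2 fold change lay between -0.12 and 0.28. Calls without a minimum fold were more common, as in the cultures against Lung. Whatever the fold, 32 were higher and 16 lower in 46LCNEC_cell. Of all genes, 33.0% were higher whatever the fold, and 35.0% were lower by at least 2-fold alone. In 57SCLC_cell 33 were higher and 6 lower, beside 32.1% and 40.4% of all genes. From culture to allograft, 1 nuclear member rose and 1 fell in 46LCNEC (of 78 tested, background 14.4% higher and 8.45% lower), and 0 were called in 57SCLC (34 of 78 at an unadjusted p under 0.05, and 0 by edgeR and DESeq2). Between the lines, 5 were higher in 57SCLC_cell than in 46LCNEC_cell and 0 lower (background 23.9% and 22.2%), and 5 were higher in 57SCLC_allo than in 46LCNEC_allo and 0 lower (background 16.1% and 14.2%). Against Lung, 46LCNEC_allo had 0 of 79 higher and 2 lower (background 13.4% and 22.1%), 57SCLC_allo 3 and 1 (18.9% and 26.9%), 46LCNEC_cell 4 and 5 (20.6% and 35.0%) and 57SCLC_cell 8 and 1 (21.1% and 32.7%). These counts include genes that passed the filter only through the group where they are high. Cox8b, which passed only through Lung, is among the lower calls in every comparison with Lung and is the only one in 57SCLC. Cox6b2 is such a gene between the cultures, in 46LCNEC_cell against Lung, and as the 1 member that rose in 46LCNEC. With totals of reads as the scale, all genes of 57SCLC shifted up by 0.21 to 0.26 against the other groups, and the calls in 57SCLC_cell became 21 against Lung and 12 against 46LCNEC_cell. The sizes below are relative to the authors' size factors.

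**Figure D3:**
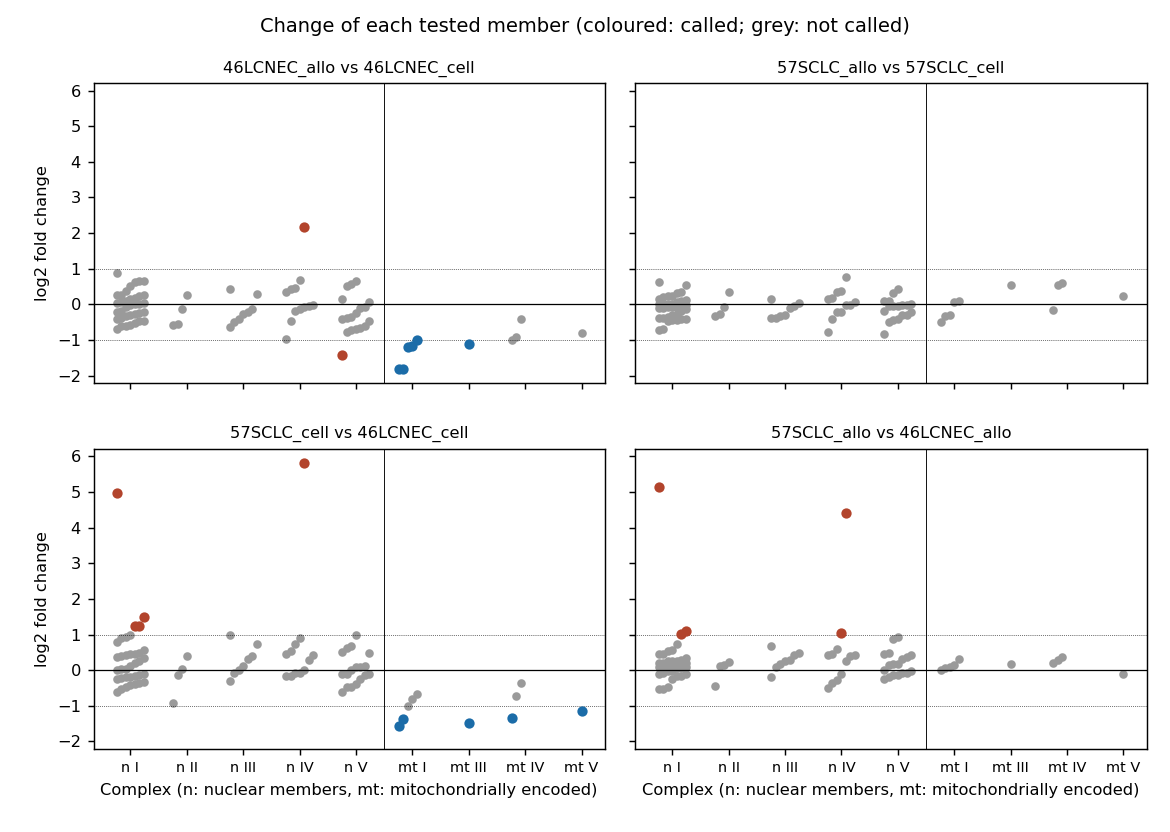
Log2 fold change of each tested member in 4 comparisons, by complex, with nuclear members left and mitochondrial members right of the vertical line. Each point is 1 gene, coloured where called, and dotted lines mark 2-fold. Most nuclear members lie within the dotted lines, with Ndufs5 and Cox6b2 farthest from 0 between the lines. The mitochondrial members lie below 0 in 46LCNEC_allo against 46LCNEC_cell and in 57SCLC_cell against 46LCNEC_cell.

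Complex I, the largest and the entry point for NADH, had 36 of 37 nuclear members tested. Ndufa13 was at 0 reads in all samples, and 43.3% of its exon bases are shared with exons of Yjefn3 and Tssk6, mostly on the other strand. The nuclear complex I member with the highest level per length was Ndufc2, an accessory membrane subunit, which was higher in 57SCLC_cell than in 46LCNEC_cell 2.83-fold (limma adjusted p = 1.73e-05). Ndufs6, an accessory subunit of the NADH module, was higher in 57SCLC_cell (1.23 ± 0.0965) and in 57SCLC_allo (1.09 ± 0.185) than in the matching 46LCNEC group. Ndufa12, another accessory subunit, was higher by 1.24 ± 0.128 in the cultures and 1.01 ± 0.22 in the allografts, the latter just past the fold and lost in each of the 6 fits that left out 1 sample. Ndufs6 in the allografts was lost in 3 of these 6. Against Lung, 46LCNEC_cell was lower in Ndufb2 (-1.59 ± 0.143), Ndufa3 (-1.42 ± 0.146) and Ndufb4 (-1.13 ± 0.196), small accessory subunits, and higher in Ndufc1 (1.19 ± 0.177). Counting the pseudogene reads as the members' own, a choice made after seeing the data, left Ndufb2 at -0.61 and Ndufc1 at 0.77, both under 2-fold. Of the exon bases of Ndufa3, 62.5% lie opposite exons of Tfpt and Oscar, whose reads cannot be told apart without strand.

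The largest change of any complex I gene was that of Ndufs5, an accessory subunit that faces the intermembrane space. It read 126, 163 and 147 normalized counts in 46LCNEC_cell, 146, 141 and 164 in 46LCNEC_allo, and 140, 115 and 140 in Lung. In 57SCLC_cell it read 4864, 4910 and 3946, and in 57SCLC_allo 6128, 3543 and 6940. All 6 samples of 57SCLC thus stood far above the 9 others, without overlap. The log2 fold change was 4.97 ± 0.13 between the cultures (limma adjusted p = 2.16e-08) and 5.14 ± 0.253 between the allografts (limma adjusted p = 1.69e-05), and no other gene overlaps its exons.

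Ndufs5 did not stand alone on its chromosome. It lies at chr4:123606481-123612002 (GRCm39, - strand), and the coding genes in a window around it were examined after this value was seen. From Ppt1 to Rragc, a stretch of 1.10 megabases, 17 of 20 coding genes were tested between the cultures. Of these, 16 were called higher in 57SCLC_cell and 0 lower (background 23.9% and 22.2%), with a median log2 fold change of 3.95. Between the allografts, 15 of 17 were called higher and 1 lower (background 16.1% and 14.2%), with a median of 5.18. Only 15 of the 20 were tested in 46LCNEC_cell or 46LCNEC_allo against Lung. Some of the 17 therefore passed the filter only with the 57SCLC samples, where they are high. The ends of this stretch were set by these values, so the counts are a description. Next to it, 9530002B09Rik read 0 in every sample of 46LCNEC_cell and 24.7 to 28.1 normalized counts in 57SCLC_cell. It passed the filter only through 57SCLC_cell, so no fitted fold is given. Of the 18 tested genes in the rest of the window, with 9530002B09Rik among them, 3 were higher and 6 lower. The stretch includes Mycl, the MYC family gene often amplified in small cell lung cancer, at 273 ± 53.8 normalized counts in 46LCNEC_cell and 87115 ± 6258 in 57SCLC_cell (SD, n = 3), and Macf1, Akirin1, Trit1 and Cap1. DNA copy number was not measured in these samples.

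**Figure D4:**
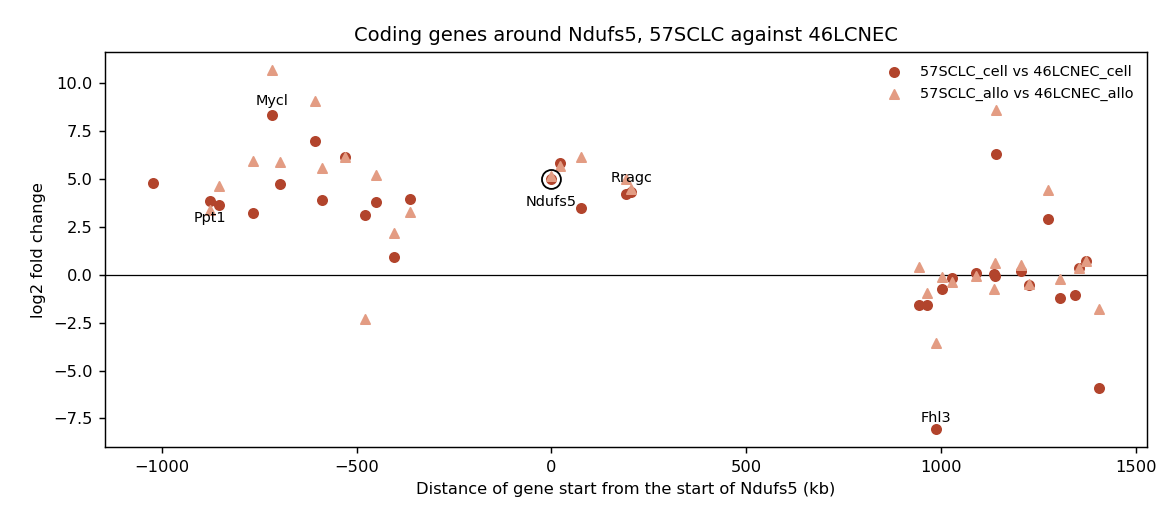
Log2 fold change of 57SCLC against 46LCNEC for the tested coding genes around Ndufs5, in culture (circles) and allograft (triangles), by the distance of the gene start from that of Ndufs5 in kb. The ring marks Ndufs5 (4.97 in culture). Genes from Ppt1 to Rragc lie above 0 with 1 exception between the allografts, and those farther right lie on both sides of 0, with Fhl3 lowest in culture.

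Complex II, the succinate dehydrogenase shared with the citric acid cycle, is the complex with no mitochondrial gene. None of its 4 members was called at 2-fold in the 8 comparisons or the interaction. Sdha, the flavoprotein that oxidizes succinate, read 2637, 2717 and 2738 in 46LCNEC_cell, 1944, 1751 and 1885 in 46LCNEC_allo and 3183, 3143 and 3111 in Lung. Its lower level in 46LCNEC_allo exceeded the spread (log2 fold change against Lung -0.76 ± 0.083, limma adjusted p = 0.000339). Sdhb, the iron-sulfur subunit, ranged from 827 to 1436 over the 15 samples, with the highest value in tumor 275. Of the membrane anchors, Sdhc was lower in 57SCLC_cell than in 46LCNEC_cell (-0.93 ± 0.0902, limma adjusted p = 2.97e-05) and Sdhd was higher (0.39 ± 0.0736, limma adjusted p = 0.00146).

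In complex III, all 8 nuclear members were tested, and the calls at 2-fold were confined to 57SCLC against Lung. Uqcr10, a small subunit near the cytochrome c1, was higher in 57SCLC_cell (1.08 ± 0.134) and 57SCLC_allo (1.02 ± 0.132), and Uqcrq, a small subunit bound to cytochrome b, in 57SCLC_cell (1.16 ± 0.0776). Uqcr10 was under 2-fold in both when sample CT3 of Lung was left out, and in 57SCLC_allo also without tumor 275. Uqcrq had the highest level per length among the nuclear members of the complex by the longest transcript, but Uqcrfs1, the Rieske iron-sulfur protein, did by the union of exons.

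Complex IV holds several members with tissue isoforms. Cox8b and Cox6b2 are printed with their promoters, beside that of Ndufs5 and that of Atp5b, the nuclear member with the highest level per length by the longest transcript, to show how differently these genes begin. The windows run from 250 bases before to 50 after the start of the main transcript, and capitals mark CG dinucleotides and the letters TATAAA.
Cox8b (GRCm39, chr7:140480310-140480609, - strand): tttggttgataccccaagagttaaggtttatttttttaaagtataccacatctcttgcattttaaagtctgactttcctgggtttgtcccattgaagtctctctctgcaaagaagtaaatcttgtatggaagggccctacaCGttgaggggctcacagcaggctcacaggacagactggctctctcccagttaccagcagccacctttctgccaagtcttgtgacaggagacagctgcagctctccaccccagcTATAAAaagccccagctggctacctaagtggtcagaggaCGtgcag
Cox6b2 (GRCm39, chr7:4755986-4756285, - strand): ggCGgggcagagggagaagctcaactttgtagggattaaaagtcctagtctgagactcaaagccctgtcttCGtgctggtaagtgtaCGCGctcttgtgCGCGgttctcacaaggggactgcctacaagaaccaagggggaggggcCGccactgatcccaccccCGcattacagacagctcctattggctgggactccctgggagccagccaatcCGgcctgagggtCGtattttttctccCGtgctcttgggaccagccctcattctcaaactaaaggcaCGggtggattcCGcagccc
Ndufs5 (GRCm39, chr4:123611953-123612252, - strand): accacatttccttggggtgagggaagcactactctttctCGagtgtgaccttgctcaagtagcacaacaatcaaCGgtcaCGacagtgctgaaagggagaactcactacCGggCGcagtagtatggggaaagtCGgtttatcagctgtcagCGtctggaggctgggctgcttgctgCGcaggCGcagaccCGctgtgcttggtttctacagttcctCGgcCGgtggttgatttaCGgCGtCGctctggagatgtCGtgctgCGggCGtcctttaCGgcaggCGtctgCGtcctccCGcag
Atp5b (GRCm39, chr10:127918882-127919181, + strand): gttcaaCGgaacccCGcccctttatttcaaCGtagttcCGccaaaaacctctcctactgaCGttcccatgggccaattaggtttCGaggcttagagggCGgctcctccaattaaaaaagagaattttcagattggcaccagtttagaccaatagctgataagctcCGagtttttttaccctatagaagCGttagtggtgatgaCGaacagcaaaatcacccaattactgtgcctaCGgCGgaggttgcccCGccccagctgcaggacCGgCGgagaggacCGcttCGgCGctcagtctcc
Cox8b has 2 CG dinucleotides and holds TATAAA on its own strand, within the 50 bases after the start. TATAAA occurs in 14.6% of the 82 member windows and 13.2% of all 21614 coding windows, on either strand. Only 2 member windows have fewer CG. Cox6b2 has 13, Atp5b 18 and Ndufs5 22, beside a median of 16 for members and 11 for all coding genes. The exact letters of the core bound by NRF1, a regulator of respiratory genes, occur in 4.88% of member windows and 1.16% of all, and CCGGAAGT of the ETS factors in 4.88% and 4.37%, each on both strands. Neither occurs in the 4 windows printed, which says only that these letters are not in them.

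Cox8b, the form of subunit VIII found in heart, skeletal muscle and brown fat, read 297, 258 and 83.1 normalized counts in Lung and at most 7.3 in the 12 tumor and culture samples. The groups did not overlap. Against 57SCLC_allo, all of whose samples were at or under 3 reads, Lung was at least 43.0-fold higher, taking a floor of 3 reads per library. The gene passed the filter only through the Lung samples in which it is high, so no fitted fold is given. In Lung, Cox8b moved with 10 skeletal muscle markers, whose sum was 1148, 879 and 164 in the same order, and with 6 adipocyte markers, at 2141, 1141 and 520. Tumor 312 of 46LCNEC_allo had an adipocyte sum of 2486, above every Lung sample, with Cox8b at most 7.3. Of the muscle markers, Acta1, Myh1, Myh4, Tnnc2 and Pvalb were at or under 3 reads in Lung. The part of these cells in the level of Cox8b was not tested. Of its exon bases, 51.5% lie opposite exons of Psmd13. Its broadly expressed partner Cox8a, the nuclear complex IV gene with the highest level per length, ranged only from 2704 ± 263 in Lung to 4463 ± 221 in 57SCLC_cell (SD, n = 3).

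Cox6b2, the testis form of subunit VIb, was low in 46LCNEC. It read 5.6, 3.3 and 4.6 in 46LCNEC_cell and 30.5, 15.8 and 26.6 in 46LCNEC_allo. The samples of 57SCLC_cell held 296, 304 and 320, those of 57SCLC_allo 699, 418 and 489, and those of Lung 238, 371 and 490. The 6 samples of 46LCNEC lay below all others. The log2 fold change was 5.82 ± 0.218 between the cultures, 4.42 ± 0.34 between the allografts (limma adjusted p = 8.09e-05) and 2.17 ± 0.41 from 46LCNEC_cell to 46LCNEC_allo. Between the cultures the gene passed the filter only through the 57SCLC_cell samples, and from 46LCNEC culture to allograft only through the tumors, so these values are a description. The call from 46LCNEC_cell to 46LCNEC_allo was lost when any 1 of the 3 dishes was left out, and with a tumor left out the gene no longer passed the filter. Its common form Cox6b1 read between 450 and 782 on average in the 5 groups and was not called at 2-fold in any comparison.

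Of the other tissue forms of complex IV, Cox6a2 and Cox8c are listed at 0 in all samples, as are Ndufa13 and Cox4i1, which most cells use. Cox7b2 had at most 7 reads, and Cox7a1 19.1 to 38.6 on average with no call at 2-fold. Among the broadly expressed subunits, Cox5a, which binds the matrix side of the complex, was higher in 57SCLC_cell than in Lung (1.52 ± 0.126, limma adjusted p = 1.27e-05), and Cox7c was higher in 57SCLC_cell than in Lung (2.33-fold) and in 57SCLC_allo than in 46LCNEC_allo (1.04 ± 0.178, lost in 4 of 6 fits that left out 1 sample). Of the exon bases of Cox5a, 41.4% lie opposite another annotated gene.

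Of the isoforms, carriers and factors that the name rule leaves out, 10 were tested from culture to allograft, and 8 stayed within 2-fold in each line. Ndufa4l2, a hypoxia-responsive relative of Ndufa4, read higher in the allografts than in culture in both lines. The log2 fold change was 5.83 ± 0.774 in 46LCNEC and 5.17 ± 0.307 in 57SCLC. In each line the gene passed the filter only with the tumors, where it is high, so these values are a description. It read 12.2, 12.1 and 8.5 in 46LCNEC_cell against 2644, 380 and 297 in 46LCNEC_allo, and 9.8, 11.5 and 15.6 in 57SCLC_cell against 567, 307 and 599 in 57SCLC_allo. Lung read 575, 671 and 712, so the cultures stood apart from both tumors and Lung. It is also a marker of pericytes, and 63.3% of its exon bases lie opposite exons of Shmt2. Cox4i2, the hypoxia-responsive form of subunit IV, rose in 57SCLC_allo over 57SCLC_cell (2.02 ± 0.348, limma adjusted p = 0.00229) but was below Lung (-3.49 ± 0.251). In 46LCNEC it read 402, 497 and 412 in culture and 91.4, 583 and 94.0 in the tumors, which overlap. Its change differed between the lines (3.35 ± 0.834, limma adjusted p = 0.00805). The common form Cox4i1 is listed at 0 in all samples.

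**Figure D5:**
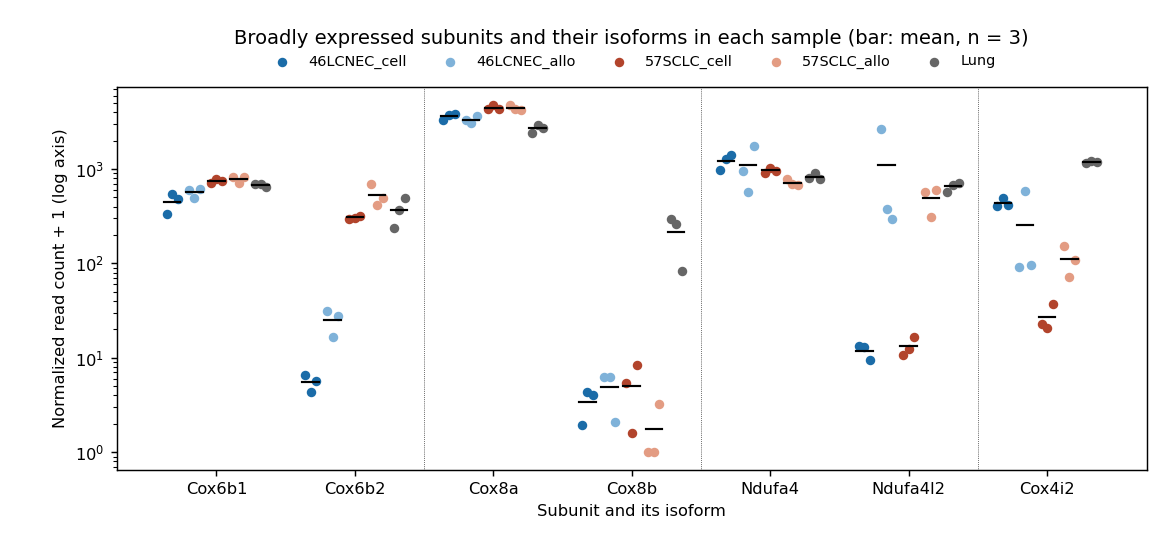
Normalized read counts plus 1 (log axis) of broadly expressed subunits and their isoforms in each of 15 samples, with bars at group means (n = 3). Cox6b2 is low in 46LCNEC, Cox8b is seen in Lung, and Ndufa4l2 is low in the cultures of both lines, while Cox6b1, Cox8a and Ndufa4 vary little.

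ATP synthase had its 18 nuclear rows tested. Against Lung, 3 were called higher in 46LCNEC_cell, 2 in 57SCLC_cell, 1 in 57SCLC_allo and 0 in 46LCNEC_allo, at backgrounds of 20.6%, 21.1%, 18.9% and 13.4%. Their median log2 fold change came to 0.63 in 46LCNEC_cell, 0.50 in 57SCLC_cell, 0.42 in 57SCLC_allo and 0.28 in 46LCNEC_allo, where the median of all genes was -0.23, -0.12, -0.09 and -0.14. Whatever the fold, 10, 9, 6 and 2 of the 18 rows were higher in these groups, beside 33.0%, 32.1%, 29.4% and 19.9% of all genes. Atp5b, the catalytic beta subunit, was the nuclear member with the highest level per length by the longest transcript (Cox8a by the union of exons) and averaged 7096 ± 842 in Lung, 13224 ± 695 and 8059 ± 577 in the cultures and tumors of 46LCNEC, and 20295 ± 1480 and 15269 ± 688 in those of 57SCLC (SD, n = 3). It was called higher than Lung in 57SCLC_cell (2.87-fold) and 57SCLC_allo (2.16-fold). In 46LCNEC_cell the c-ring genes Atp5g2 (1.43 ± 0.134) and Atp5g3 (1.17 ± 0.099) were called higher than Lung. The third c-ring gene, Atp5g1, was not called. Over the 15 samples it held 3910 reads of its own against 35148 on its pseudogenes, so the missing call says little about its level. Atp5l, the g subunit of the membrane part, fell from 447, 491 and 598 in 46LCNEC_cell to 166, 178 and 228 in 46LCNEC_allo, without overlap (-1.42 ± 0.19, limma adjusted p = 0.000843). The call of the shorter Atp5o row in 57SCLC_cell against Lung (2.48 ± 0.528) rests on 2.3 to 35.6 normalized counts per sample and was lost in 3 of 6 fits that left out 1 sample.

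Some genes that make or handle mitochondrial RNA were also lower in 46LCNEC_allo than in 46LCNEC_cell. Their part in the fall of the mitochondrial members was not tested. Of 26 tested genes of mitochondrial DNA replication, transcription and RNA handling, a list drawn up with earlier results of these data known, 6 were called lower in 46LCNEC_allo than in 46LCNEC_cell and 0 higher (background 8.45% lower, list median -0.74). Tfb1m, which methylates mitochondrial ribosomal RNA, changed by -2.27 ± 0.182 (limma adjusted p = 9.19e-05), Mtpap, the mitochondrial poly-A polymerase, by -1.70 ± 0.155 (limma adjusted p = 0.000165) and Lrpprc, which stabilizes mitochondrial mRNAs, by -1.30 ± 0.122 (limma adjusted p = 0.000187). Lrpprc read 2091, 2301 and 2623 in culture and 1037, 882 and 928 in the tumors, which do not overlap. In 57SCLC, where the mitochondrial members were not called, 1 of the 26 was lower, Pnpt1 (-1.01 ± 0.1, background 2.29%). The interaction called Tfb1m (2.03 ± 0.335), Lrpprc (1.23 ± 0.158) and Tfb2m, a mitochondrial transcription factor (1.16 ± 0.188), with a more positive change in 57SCLC than in 46LCNEC. In all it called 4 of the 26 that way and 1 the other way, Top1mt, a mitochondrial topoisomerase (-1.01 ± 0.224), at backgrounds of 10.8% and 6.78%. Between 46LCNEC_cell and Lung, 12 of the 26 were higher in 46LCNEC_cell (background 20.6%).

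The other lists were drawn up in the same way. Among 11 nuclear regulators of respiratory genes, Ppargc1a, the coactivator best known for driving mitochondrial biogenesis, was higher in 57SCLC_cell than in 46LCNEC_cell (2.95 ± 0.136, limma adjusted p = 3.71e-07) and lower in 57SCLC_allo than in 57SCLC_cell (-1.21 ± 0.174). It read 860, 832 and 709 in 57SCLC_cell, 419, 266 and 362 in 57SCLC_allo, 113, 90.5 and 105 in 46LCNEC_cell and 1.3, 47.4 and 90.7 in 46LCNEC_allo, where its samples differed widely. From 46LCNEC_cell to 46LCNEC_allo, 0 of 10 tested regulators were called in either direction. Of 78 mitochondrial ribosomal protein genes, 72 were tested, and 0 rose and 1 fell in that comparison (background 14.4% and 8.45%). Of the 72, 16 were higher and 1 lower in 46LCNEC_cell than in Lung (background 20.6% and 35.0%), so the share higher was near that of all genes. Among 16 tested assembly factors of complex IV, Coa3, which helps mt-Co1 into the complex, rose by 1.96 ± 0.152 from 46LCNEC_cell to 46LCNEC_allo (limma adjusted p = 7.98e-05), and differed between the lines in this change (-2.21 ± 0.166, limma adjusted p = 1.35e-06). Of 14 citric acid cycle genes, Idh3a fell in 46LCNEC_allo (-1.20 ± 0.11), and Mdh2 and Idh3a were among those higher than Lung in both cultures, Idh3a by 1.39 ± 0.101 in 46LCNEC_cell and 1.65 ± 0.0982 in 57SCLC_cell.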

How the data were processed

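RNA from 15 samples was sequenced after poly-A selection. Per the methods, the authors aligned paired reads to GRCm39 with Rbowtie2, which does not split reads across introns, made gene counts with featureCounts from the GENCODE M27 annotation, and divided the counts by DESeq2 size factors. The strand setting and the handling of reads with several alignments are not given in the sources used here. The deposited values are this normalized signal. Each value was a whole multiple of its sample's step within 0.01 for 100% of values, so reads were recovered from it, 9480244 to 44876572 per sample. Shares carry counting error only in their intervals.

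limma 3.58.1 (R 4.3.3, empirical Bayes with a trend) was fitted to log2(normalized count + 1) for genes with at least 10 in at least 3 of the samples compared. A fold change on this scale understates that of low genes. Benjamini-Hochberg adjusted p-values ran over all genes tested, and a call took an adjusted p of at most 0.01 and at least 2-fold. The line by growth comparison was an interaction term over 12 samples. Every p-value measures the spread between 3 dishes or flasks of 1 line, 3 tumors or 3 lungs. On simulated data for 57SCLC_allo against Lung (18517 genes), 95.5% of 200 changed genes were recovered. How recovery depends on the size of a change was not tested, and this share is not given for calls near 2-fold. On the recovered reads, edgeR 4.0.16 and DESeq2 1.42.0 were run as alternatives, and edgeR called 3657 genes in 46LCNEC_allo against 46LCNEC_cell where limma called 3738.

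Letters A to C of the 2 cultures did not pair them. Coordinates came from GENCODE release M39, and promoter and copy sequences from GRCm39. Levels per length used the longest transcript. Named were all mitochondrial members, the Sdh genes, tissue isoforms, up to 5 nuclear members per direction and comparison by fold among those called, the highest per length in each complex, and up to 3 called genes per further list. Neighbours of Ndufs5, members with pseudogenes or overlapping exons, and the other genes named beside these were picked once their values had been seen. The members and the gene lists were drawn up with earlier results of these data known. No column was left unused (0). Some items of the series are not reported here.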

Additional observations from a re-analysis of the deposited data

Results flagged for a closer look

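The change of 4 mitochondrial members from culture to allograft differed between the lines by the test of the difference itself, 57SCLC minus 46LCNEC on the log2 scale. The differences were 1.90 for mt-Nd1, 1.66 for mt-Cytb, 1.55 for mt-Co2 and 1.49 for mt-Nd2. Each of the 4 genes was lower in all 3 samples of 46LCNEC_allo than in all 3 of 46LCNEC_cell. The value of mt-Co2 rests on few reads. All of its 150-base windows recur in the nuclear genome, and the part of this in its level was not tested.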

How the results depend on the processing

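Each comparison rests on 3 samples a group, and the 6 mitochondrial members whose windows nearly all recur in the nuclear genome have at most 530 reads in any library. Of the 54 calls of named members, 20 were lost under at least 1 alternative, 12 of them only with a sample left out, and 0 reversed, and the cause was not tested. Without a minimum fold, the nuclear members called became 15 in 46LCNEC_allo against Lung, 23 in 57SCLC_allo against Lung, 48 in 46LCNEC_cell against Lung, 39 in 57SCLC_cell against Lung, 31 between the cultures, 10 between the allografts, 13 from culture to allograft in 46LCNEC, 7 in 57SCLC and 3 in the interaction. In the 4 comparisons with Lung, 8, 20, 32 and 33 of the 79 tested were higher, in the order given. Of all genes, 19.9%, 29.4%, 33.0% and 32.1% were. The other counts in this paragraph have no share of all genes beside them and describe only how calls depend on the settings. The mitochondrial members became 2 in 57SCLC_allo, 6 in 46LCNEC_cell and 3 in 57SCLC_cell against Lung, and 8 between the cultures. At an adjusted p of at most 0.05 the interaction called 1 nuclear and 7 mitochondrial members. The single mitochondrial call in 46LCNEC_allo against Lung became 0 with edgeR, with DESeq2, and with TMM scaling, also when TMM left out the mitochondrial genes and Rn18s-rs5. With library size scaling the nuclear calls became 9 in 57SCLC_allo against Lung, 21 in 57SCLC_cell against Lung and 12 between the cultures. TMM scaling gave 14 in 57SCLC_cell against Lung, edgeR 8 between the cultures and DESeq2 1 in the interaction. A pseudocount of 5 left 1 mitochondrial call in 46LCNEC_cell against Lung. With the union of exons as length, the levels became 38.0 for Uqcrq and 112 for Atp5b, in RPKM. Library size scaling moved the median of all genes by 0.21 to 0.26 in the comparisons of 57SCLC with 46LCNEC or Lung, and between the allografts the share of all calls that were higher went from 53.1% to 64.2%. TMM scaling moved it by 0.12 in 46LCNEC_cell and 0.11 in 57SCLC_cell against Lung.

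With 1 sample left out, mitochondrial and nuclear calls ran from 2 to 7 and 1 to 2 in 46LCNEC_allo against 46LCNEC_cell, 0 to 1 and 1 to 3 in 46LCNEC_allo against Lung, 1 to 2 and 7 to 10 in 46LCNEC_cell against Lung, 0 to 1 and 3 to 5 in 57SCLC_allo against Lung, 0 to 0 and 8 to 9 in 57SCLC_cell against Lung, 4 to 6 and 5 to 8 between the cultures, 0 to 0 and 2 to 4 between the allografts, 0 to 0 for both in 57SCLC_allo against 57SCLC_cell, and 2 to 5 and 0 to 1 in the interaction. With the letter as replicate block, the cultures gave 5 nuclear and 5 mitochondrial calls, as without it. Samples with the same letter had correlations of 0.18, -0.19 and 0.00 of their deviations for A, B and C, and 1 of 3 letters correlated best with itself.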

Other observations

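Further lists around the members were drawn up with earlier results of these data known. Of 13 tested assembly factors of complex I, 0 were called higher and 1 lower in 46LCNEC_allo than in 46LCNEC_cell, near the 8.45% of all genes called lower, and 0 in either direction between 57SCLC_allo and 57SCLC_cell.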
